A study of Drosophila melanogaster with 2 samples.

Results

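The regions described here are the autosomal intronic peaks near transcription starts in a map of the protein encoded by CG4730 on the genome of Drosophila melanogaster embryos. A peak belonged to them if its summit, the point of highest signal, lay on an autosomal arm, inside an annotated gene, in no annotated exon, and more than 500 bp but at most 5000 bp from the nearest annotated transcript start. The rule used position alone and no signal value. It took 679 of the 2854 autosomal peaks in the authors' pooled set, which held 3551 peaks on the chromosome arms with X included. The other autosomal peaks were 1286 promoter peaks with a summit within 500 bp of a start, 319 intronic peaks farther than 5000 bp from a start, 464 intergenic peaks and 106 exonic peaks more than 500 bp from a start.

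Chromatin immunoprecipitation with sequencing (ChIP-seq) recovers DNA that is crosslinked to a chosen protein, and a peak is a place where the recovered DNA piles up. The embryos came from a strain with an insertion targeting CG4730, so that the protein carried enhanced green fluorescent protein (eGFP), and the pull-down used an antibody to GFP although the antibody field of the labels names CG4730. The only group held 2 biological replicates of whole embryos collected from 0 to 24 hours, so every tissue and stage of embryogenesis was mixed, nothing could be compared between conditions, and the tagged protein stood in for the native one. Each signal below is the authors' value for a peak, in a unit they did not state, and no sources used here gave the read depth.

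Introns of flies hold many of the control sequences of developmental genes, and the first intron is often the longest and the richest in them. Many fly genes have several alternative starts, so that a base in an intron of a long transcript can lie upstream of the start of a shorter transcript of the same gene. Enhancers, which act over a distance, and insulators, which bound the reach of enhancers, are both found in introns.

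The sequences under 5 of the strongest of these summits are shown first, because they carry the base composition and the short words described further on. Each run covers 50 bp to each side of the summit in build dm6, written from left to right along the plus strand, with capitals marking matches on either strand to TATAAA or TAATTA and to the longer words TATATTAA or AGATGGCG. CG11050 holds the strongest peak, Trl, CG9837 and chif hold 3 others among the 10 strongest, and mub is shown because its window had the lowest share of A and T among the 20 strongest.
CG11050, chr2L:6612666-6612766, plus strand: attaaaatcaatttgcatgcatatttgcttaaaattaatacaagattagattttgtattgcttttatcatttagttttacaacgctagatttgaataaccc
Trl, chr3L:14759451-14759551, plus strand: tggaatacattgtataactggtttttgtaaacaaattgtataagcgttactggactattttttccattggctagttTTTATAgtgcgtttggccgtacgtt
CG9837, chr3R:8811623-8811723, plus strand: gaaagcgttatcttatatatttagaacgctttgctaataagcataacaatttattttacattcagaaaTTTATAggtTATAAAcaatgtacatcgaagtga
chif, chr2L:16351195-16351295, plus strand: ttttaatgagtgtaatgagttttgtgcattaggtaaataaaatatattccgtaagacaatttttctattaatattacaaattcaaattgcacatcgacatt
mub, chr3L:21880419-21880519, plus strand: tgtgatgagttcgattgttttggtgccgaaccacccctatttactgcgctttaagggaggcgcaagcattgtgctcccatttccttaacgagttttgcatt

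In 4 of these 5 windows A and T made up 66.3% to 76.2% of the bases, and in mub they made up 53.5%. TATAAA stood on the minus strand in Trl and on both strands in CG9837, and the windows of CG11050, chif and mub held none of the 4 words. The windows that follow are examples with TATATTAA, and some stronger summits with that word are not shown. In CG9663 the capitals run together because a match to TATAAA on the minus strand shares bases with TATATTAA.
CG9663 weaker peak, chr2L:3302349-3302449, plus strand: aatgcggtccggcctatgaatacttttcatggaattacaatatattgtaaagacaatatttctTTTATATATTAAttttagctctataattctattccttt
comm3, chr3L:15625820-15625920, plus strand: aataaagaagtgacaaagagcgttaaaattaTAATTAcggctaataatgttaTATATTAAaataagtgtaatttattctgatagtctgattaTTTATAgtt

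The last windows are examples with AGATGGCG, which had the highest odds ratio of the words that passed. The strongest summit with it, in EcR, is not shown. A and T made up 46.5% to 55.4% of their bases. CG12017 carries the word once on each strand.
RapGAP1, chr2L:7535052-7535152, plus strand: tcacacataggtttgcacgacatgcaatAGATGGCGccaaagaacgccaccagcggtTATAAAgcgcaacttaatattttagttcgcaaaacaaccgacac
CG12017, chr3L:3288583-3288683, plus strand: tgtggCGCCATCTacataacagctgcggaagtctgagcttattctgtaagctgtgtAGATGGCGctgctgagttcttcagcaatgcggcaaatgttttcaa
CG43693, chr3L:11048043-11048143, plus strand: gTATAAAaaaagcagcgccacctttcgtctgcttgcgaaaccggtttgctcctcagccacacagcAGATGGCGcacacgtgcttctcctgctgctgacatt

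Most of the strongest intronic peaks near starts were found in both replicates' own sets, while the weaker part of them was often missing from one or both. The size of the signal differed between the replicates by little at some of them and clearly at others. The strongest lay in CG11050 (FBgn0031836; chr2L:6612556-6612884, dm6), in an intron other than the first and 1029 bp downstream of the nearest start. Its signal was 908 in replicate 1 and 878 in replicate 2, or 893 ± 20.99 (SD, n = 2), and 1791 in the pooled set. The next lay in the first intron of Adf1 (FBgn0284249; chr2R:6662912-6663230), which encodes a DNA-binding transcription factor, 800 bp downstream of a start. It measured 811 in replicate 1 and 671 in replicate 2, or 741 ± 98.7 (SD, n = 2), so the replicates differed more there than at CG11050. HmgZ (FBgn0010228; chr2R:21703221-21703596), which encodes a chromosomal protein with a high mobility group box, measured 650.4 and 477 at a summit 559 bp upstream of one of its own starts. Trl (FBgn0013263; chr3L:14759350-14759669) encodes GAGA factor, a protein that binds GAGA repeats and helps to open chromatin. Its peak measured 452 and 445, and lay 1539 bp upstream of the nearest start.

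Further down the list of strong peaks the replicates still gave close pairs of values. CG9837 (chr3R:8811558-8811793) measured 359 in each replicate, and chif (chr2L:16351104-16351355), which encodes a relative of the Dbf4 protein of DNA replication, measured 299 and 298. The peak of mub (chr3L:21880375-21880607), an RNA-binding protein gene, measured 317 and 286. These peaks were thus nearly equal in the replicates, unlike those of Adf1 and HmgZ. Mekk1 (chr3R:18741657-18741896), a kinase gene of stress signalling, measured 263 and 265. The peak of brat (chr2L:19165045-19165268), which encodes a translational repressor, measured 232 and 262. Dhc64C (chr3L:4824891-4825095), which encodes the heavy chain of cytoplasmic dynein, was also higher in replicate 2, at 207 and 243.

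**Figure D1:**
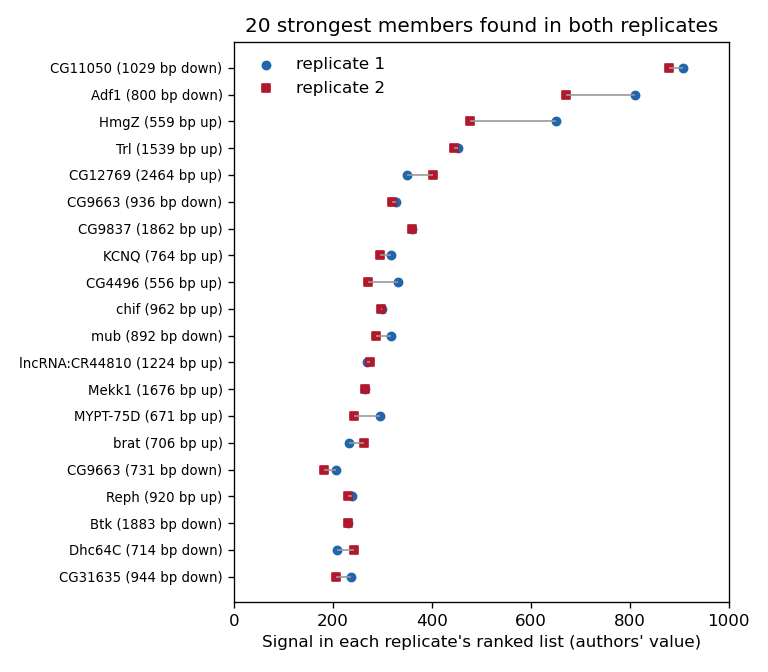
Signal of the 20 strongest intronic peaks near starts that both replicates' own sets held. The x axis is the authors' signal in each replicate's ranked list (no stated unit), circles are replicate 1, squares are replicate 2, each line joins the replicates of 1 peak, and the labels give the gene and the distance upstream or downstream of the nearest start. CG11050 stood at 908 and 878, and the pairs for CG9837, chif, Mekk1 and Btk nearly coincided.

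Among the others of the 20, CG12769 (chr2R:8060885-8061157) measured 349 in replicate 1 and 402 in replicate 2, at 2464 bp from the nearest start, the farthest of the 20. CG4496 (chr2L:7188483-7188749) measured 332 and 269.9 at 556 bp. MYPT-75D (chr3L:18640596-18640826), which encodes a regulatory subunit of myosin phosphatase, measured 294 and 243. In the latter pair of genes replicate 1 was higher, and in CG12769 replicate 2 was. Reph (chr2L:3804643-3804883) measured 239 and 231, and CG31635 (chr2L:6647104-6647325) 236 and 206. The peak of lncRNA:CR44810 (chr2R:24327645-24327864), a long noncoding RNA gene, measured 268 and 275.

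Several of these genes held weaker peaks as well. Trl held a second 1096 bp downstream of a start, at 121 in replicate 1 and 73.1 in replicate 2, and another at 49.4 and 36.1. HmgZ held others, the weaker of which in replicate 1 measured 36.0 and 52.1 and lay nearest to the start of HmgD, the neighbouring gene for a related protein. KCNQ held a second at 91.7 and 96.9. Over all 679 peaks, 128, or 18.9%, had another pooled peak within 1000 bp, beside 17.0% of all autosomal peaks, and the median distance to the next peak was 4325 bp against 5856.5 bp. No test was run on these spacings.

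The 20 strongest lay in 19 genes, since CG9663, which encodes an ABC transporter, held 2 peaks that share 1 base (chr2L:3302044-3302309 and chr2L:3302309-3302560). The stronger measured 328 in replicate 1 and 319 in replicate 2, and the other 206 and 180.5. Of the 20, 16 lay in a first intron, 15 in an intron ahead of the start codon and 13 within 1000 bp of the nearest start. The nearest start lay downstream, within the same gene, for 11 of them, and upstream within the same gene for 7. The remaining 2 were nearest to another gene's start. They were KCNQ, a potassium channel gene, at 764 bp from the start of mlt, and Btk, a tyrosine kinase gene, at 1883 bp from the start of a lysine tRNA gene.

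Of the 679 peaks, 324 were found in both replicates' own sets, or 47.7% (95% Wilson interval 44.0 to 51.5), beside 49.1% of all 3551 pooled peaks on the arms. Replicate 1's set alone held 97, replicate 2's set alone held 106, and neither held 152. Against promoter peaks, at 55.5%, the difference in the share found in both was -7.80 percentage points (Fisher's exact test, adjusted p = 0.00156 over 3 classes). It was 13.5 points above that of intronic peaks farther than 5000 bp from a start, at 34.2% (Fisher's exact test, adjusted p = 0.00016). The difference from intergenic peaks, at 43.75%, was 3.97 points and did not pass (Fisher's exact test, adjusted p = 0.205). Two-sided tests were used throughout, and peaks, not embryos, were the units counted. When the strongest peak of each gene alone was kept, the difference from promoter peaks was -0.0345 points and did not pass, but that choice by signal also raises the share found in both.

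Peaks found in both own sets had higher signals than the rest. The pooled signal and the own sets were made from the same 2 replicates, so this difference was in part built in. The median pooled signal was 165 for those in both sets and 72.2 for those in neither. Among the 100 strongest, 98 were in both sets. The strongest peak in neither set lay in pnt (chr3R:23335500-23335839), which encodes an ETS transcription factor of receptor tyrosine kinase signalling, with 58.5 in replicate 1, 53.6 in replicate 2 and 114 in the pooled set. It was followed by peaks in Lerp, at 48.8 and 60.3, and in for, a protein kinase gene, at 47.3 and 38.3. Those in CG8420 and milt had pooled signals of 101 and 99.7, so the strongest of this kind lay close to the median of all 679. Over the 664 peaks present in both ranked lists, Spearman's rho between the replicates was 0.728, and over the 324 found in both sets it was 0.784. These points are peaks of the same 2 libraries, so the values describe the lists.

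**Figure D2:**
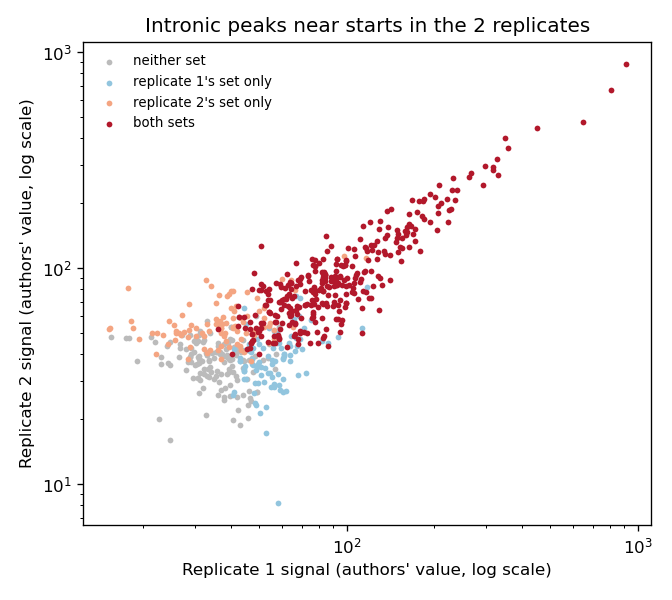
Signal of the intronic peaks near starts in the ranked lists of the 2 replicates, on log axes (authors' value, no stated unit), with 1 point for each of 664 peaks. Colours give the own set or sets in which a peak was found. Peaks found in both sets hold the upper right of the plot, and those in neither set lie low in both replicates.

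The pooled signal of the 679 peaks ran from 2.13 to 1791, with a median of 105 and quartiles at 77.9 and 163. The median was 125 for promoter peaks, 93.5 for farther intronic peaks and 98.4 for intergenic peaks. Signals above the median of all autosomal peaks, 107, occurred in 48.6% of the intronic peaks near starts. That was less often than among promoter peaks, at 58.9% (Fisher's exact test, adjusted p = 4.15e-05), and more often than among farther intronic peaks, at 37.9% (Fisher's exact test, adjusted p = 0.00255). The share for intergenic peaks was 42.2% (Fisher's exact test, adjusted p = 0.0347). Neither of the last 2 differences passed in either replicate's own set alone. With the strongest peak of each gene alone, a choice by signal, the difference from promoter peaks was -0.684 points and did not pass. All 22 of the peaks with a pooled signal under 30 overlapped a stronger pooled peak, as did 26 of the 679 in all, or 3.83%, beside 3.86% of all pooled peaks.

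The intronic peaks were densest at the near end of the allowed distance. Of 679 summits, 208 lay at most 1000 bp from a start, or 30.6% (95% Wilson interval 27.3 to 34.2), while 18.1% of the bases that met the rule lay there. The share was 1.69 times that of the bases (exact binomial test, p = 2.5e-15), a test that treats summits as independent although some lie close together. Per Mb of bases that met the rule there were 58.3 summits up to 1000 bp from a start, 40.8 from there to 1500 bp and 34.0 from there to 2000 bp. Farther out the density was 26.1 up to 3000 bp, 22.6 up to 4000 bp and 24.8 up to 5000 bp, so it fell over the first bins and then levelled. The median signal was 112 in the nearest bin and between 92.6 and 115 in the others, with no such trend. The share found in both replicates' own sets was 55.8% in the nearest bin and between 38.4% and 47.6% in the others. At the limits of the rule, the nearest summit kept lay 502 bp from a start, in MESR3 with a pooled signal of 153, and the nearest left out lay at 493 bp, in aru with 355. At the far end, a summit in tara at 4991 bp with 136 was kept and one in rols at 5001 bp with 63.9 was not.

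First introns held 526 of the 679 summits, or 77.5% (95% Wilson interval 74.2 to 80.4), against 56.9% of the bases that met the rule (ratio 1.36, exact binomial test, p = 3.42e-29). Because first introns lie nearer to starts, the shares were also set side by side within the 6 distance bins. Summits exceeded bases in each bin, with 83.2% against 68.8% up to 1000 bp and 53.6% against 46.3% from 4000 to 5000 bp. With the distance bins taken into account 59.6% would lie in first introns, and the exact binomial p was 6.78e-23. This version of the comparison was chosen after the first had been seen. An intron ahead of the start codon held 363 summits, or 53.5%, beside 42.3% of the bases. It held summits of HmgZ, Trl, chif, mub and brat, but not those of CG11050, Adf1 or Dhc64C.

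**Figure D3:**
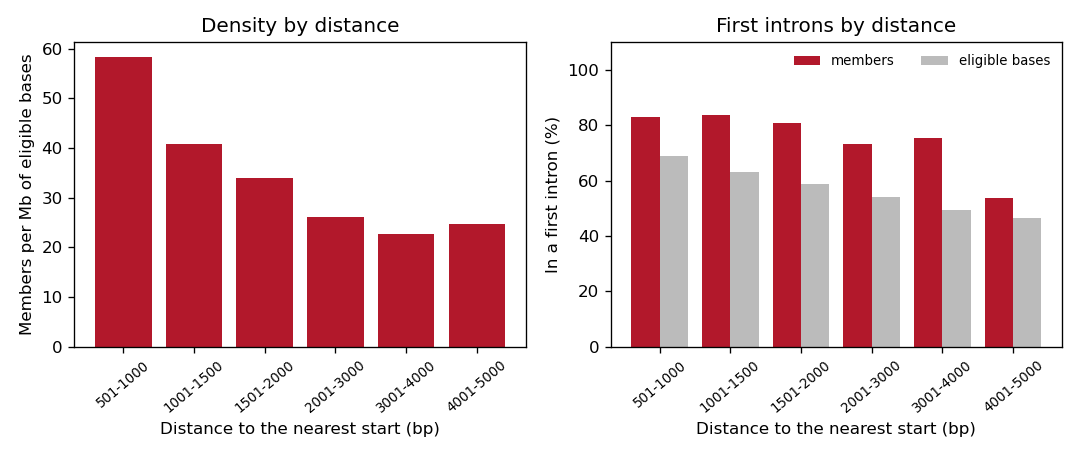
Left, summits of the intronic peaks per Mb of bases that met the rule, by distance from the nearest start in bp. Right, the share of summits (red) and of bases that met the rule (grey) in a first intron, in %, for the same distances. The density fell from 58.3 to 22.6 per Mb between the first and the fifth bin, and the red bar exceeded the grey one in each bin.

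No preference for one side of the nearest start was detected over all summits: 430 of 679, or 63.3%, lay downstream of it, beside 65.8% of the bases (exact binomial test, p = 0.169). The picture changed once the owner of that start was considered, a split chosen after the values had been seen. Summits upstream of a start of the gene around them numbered 164, or 24.2% (95% Wilson interval 21.1 to 27.5) against 13.9% of bases (exact binomial test, adjusted p = 1.58e-12). These lie in an intron of a longer transcript and ahead of a shorter one, like the summits of HmgZ, Trl, chif and brat. Summits downstream of a start of their own gene numbered 390, or 57.4% against 51.4% (exact binomial test, adjusted p = 0.00186). For 125, or 18.4% against 34.7%, the nearest start belonged to another gene (exact binomial test, adjusted p = 2.92e-20). The shares add up to the whole, so the low share at other genes' starts raises the remaining ones. The downstream excess is therefore no separate result. When only summits and bases nearest to a start of their own gene are counted, the upstream share lay above that of bases and the downstream share below it. That difference was not tested. Median signals in these places were 117, 106 and 94.4, and 53.7%, 48.5% and 37.6% of the peaks were found in both replicates' own sets. The nearest start was that of a protein-coding gene for 620 peaks, of a long noncoding or antisense RNA for 44 and of a tRNA for 8.

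**Figure D4:**
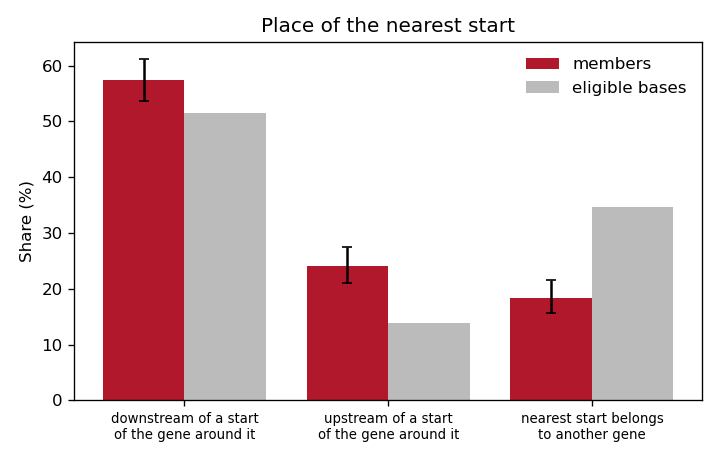
Share (%) of the 679 summits (red, with 95% Wilson intervals) and of the bases that met the rule (grey), by the place of the nearest start. Summits upstream of a start of their own gene made up 24.2% against 13.9% of bases, and those nearest to another gene's start 18.4% against 34.7%.

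The arms carried the peaks close to their shares of the bases that met the rule, apart from chromosome 4. Arm 2L held 129, 2R held 156, 3L held 184 and 3R held 210, and no difference from the share of bases passed (exact binomial tests, adjusted p from 0.0686 to 0.611). Chromosome 4 held 0 of 679, which allows a share of up to 0.442%, against 1.60% of the bases (exact binomial test, adjusted p = 0.000199). In replicate 2's own set, analysed without replicate 1, it held 1 such peak and the difference did not pass (exact binomial test, adjusted p = 0.0654).

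Summits were richer in A and T than the sequence around them. In windows of 101 bp the share of A and T was 66.4% ± 9.45 at the summit (SD over peaks, n = 679) and 57.9% ± 6.68 in windows centred 500 bp to each side. The difference was 8.47 ± 12.3 percentage points, and the summit was higher in 519 of 673 peaks without a tie (exact sign test, p = 4.24e-47). Divided by signal into 4 groups of nearly equal size, the strongest group had a difference of 11.5 points, the next 11.2, the third 8.75 and the weakest 2.50. The weakest group, with pooled signals from 2.13 to 77.9, was also found in both replicates' own sets for only 7.06% of its peaks, against 97.1% in the strongest. The same differences were 12.4 points for promoter peaks, 7.31 for farther intronic peaks, 5.35 for intergenic peaks and -4.06 for exonic peaks. They were not tested against each other. Over all 3551 pooled peaks on the arms the difference was 8.86 points. There the summit was higher in 76.0% of peaks, beside 76.4% of the intronic peaks near starts with ties kept in the total. The rise was thus not particular to the latter. For the intronic peaks near starts, flanks centred 1000 bp away gave a smaller difference, 6.86 points. Windows tiled over the bases that met the rule, and overlapping no pooled peak, averaged 60.4% A and T, more than the flanks at 500 bp.

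**Figure D5:**
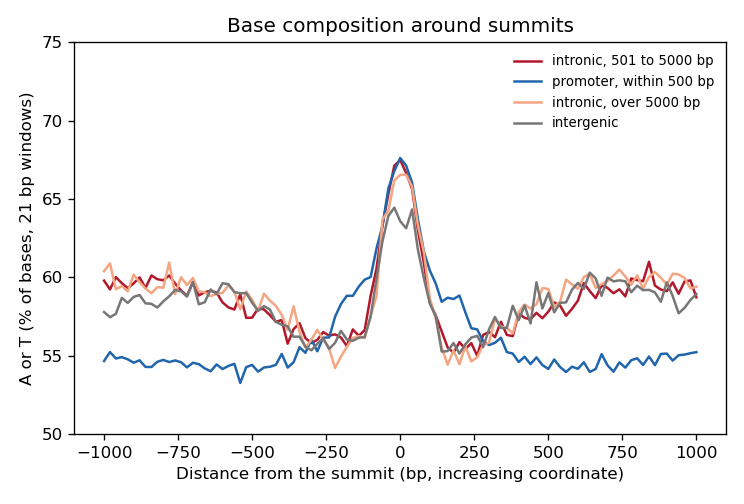
Mean share of A and T (%, windows of 21 bp) against the distance from the summit in bp along increasing coordinates, for 4 classes of autosomal peaks. The y axis starts at 50%. All 4 lines rise around the summit, and the line of the intronic peaks near starts (red) runs close to that of promoter peaks at the summit and to that of farther intronic peaks away from it.

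Short words known from fly control sequences were searched on both strands of the 101 bp windows. They were compared with 176907 tiles, windows of the same length laid over the bases that met the rule and overlapping no pooled peak. Of 26 words, 6 were more frequent at the summits, 2 were less frequent and 18 did not pass (Fisher's exact test, adjusted over 26). TATAAA, the core of the TATA box, was in 22.5% of summit windows and 14.0% of tiles (odds ratio 1.78 with an adjusted p of 6.37e-08 by Fisher's exact test). TAATTA, bound by many homeodomain proteins, was in 11.3% and 8.29% (odds ratio 1.41 with an adjusted p of 0.0313 by Fisher's exact test). TCAGT, the core of the initiator of fly promoters, was in 19.6% and 15.5% (odds ratio 1.33 with an adjusted p of 0.0262 by Fisher's exact test). A run of AAAAAAAA was in 8.84% and 6.41% (odds ratio 1.42 with an adjusted p of 0.0476 by Fisher's exact test). The less frequent words were CACACA, in 6.63% and 9.33% (odds ratio 0.690 with an adjusted p of 0.0476 by Fisher's exact test), and GCCATNTT, a core of the Pho binding site, in 0.736% and 2.13% (odds ratio 0.341 with an adjusted p of 0.0313 by Fisher's exact test). The call of TATAAA held in 5 of 7 alternatives, those of TAATTA and TCAGT in 3, those of CACACA and the run of A in 2, and that of GCCATNTT in 1. Over all pooled peaks the shares were 21.6% for TATAAA, 10.3% for TAATTA, 17.0% for TCAGT and 7.97% for the run of A. They were 6.05% for CACACA and 1.72% for GCCATNTT. Most of these shares thus lay nearer to those of the summits here than to those of the tiles. A match describes letters and shows no binding.

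TATATTAA and AGATGGCG, the words shown in the printed windows, had been ranked earlier on peaks of these same data, so their counts are no independent evidence. TATATTAA was in 26 summit windows, or 3.83%, against 1.19% of tiles (odds ratio 3.30 with an adjusted p of 4.80e-06 by Fisher's exact test). AGATGGCG was in 7, or 1.03%, against 0.202% (odds ratio 5.15 with an adjusted p of 0.00492 by Fisher's exact test). Those 7 lay in EcR, which encodes the ecdysone receptor, in RapGAP1, Nrt and sba, and in CG12017, CG43693 and MSAmiP. The peak of RapGAP1 (chr2L:7534932-7535271) measured 75.7 in replicate 1 and 110 in replicate 2, and that of EcR 82.5 and 94.0. These strongest of the 7 lay above 56.2 and 53.7, the medians of the 665 and 678 members that the ranked lists held. In replicate 1 CG12017, CG43693, MSAmiP and sba lay below the median, at 45.5, 44.5, 40.6 and 32.8, and Nrt had no value. In replicate 2 CG12017 and CG43693 lay above it, at 77.4 and 65.2. There MSAmiP, Nrt and sba lay below it, at 53.6, 53.6 and 40.6. AGATGGCG followed by a C is also a match to AGNNGGCGC, a core of the CTCF site, which did not pass here (1.18% against 0.652%). The calls of TATATTAA and AGATGGCG held in 5 of 7 alternatives each, and that of AGATGGCG was lost against the flanks of the same summits and without replicate 2. Over all pooled peaks TATATTAA was in 3.86% of windows and AGATGGCG in 1.21%, and intergenic peaks held AGATGGCG in 1.94%. Neither word was thus particular to the intronic peaks near starts.

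Base composition moved with most of these words. When summits and tiles were compared within strata of 5 percentage points of A and T, 3 words passed: TCAGT at an odds ratio of 1.39, AGATGGCG at 8.33 and AGNNGGCGC at 3.22. TCAGT did not pass without replicate 2, where its odds ratio was 1.13, in the conservative set, against the flanks or without repeat-masked bases. TATAAA fell to an odds ratio of 1.04 and did not pass, TATATTAA had 1.69 and did not pass, and TAATTA and the run of A had 0.984 and 0.992. With repeat-masked bases left out, which kept 222 summits, 1 word passed.

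Set against the other classes of peaks in 78 comparisons chosen after the values had been seen, 2 passed, both against promoter peaks. TATCGATA, the DNA replication-related element of fly promoters, was in 0 of 679 windows, which allows up to 0.442%, and in 27 of 1286 promoter windows, or 2.10% (Fisher's exact test, adjusted p = 0.00113). CGATA, bound by the insulator protein BEAF-32 and contained within TATCGATA, was in 9.72% and 16.02% (odds ratio 0.564 with an adjusted p of 0.00441 by Fisher's exact test). TATCGATA was also in 0 of 319 farther intronic windows and 0 of 464 intergenic windows. CGATA was in 10.03% of the farther intronic windows and 9.27% of the intergenic ones, and did not pass against either class. Against the tiles, which held TATCGATA in 0.210% and CGATA in 10.7%, neither word passed. Neither difference from promoter peaks was thus particular to the intronic peaks near starts. TATAAA stood at 22.5% here and 23.3% in promoter peaks, and did not pass.

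The 679 peaks lay in 483 genes. Where several genes spanned a summit, only 1 was counted, a protein-coding gene first and then the one with the nearest start. Another gene around the same summit could thus count as holding no peak. Of 7602 protein-coding genes with at least 1 base that met the rule, 476, or 6.26%, held 672 of the peaks, and 6 noncoding RNA genes and 1 pseudogene held the other 7. A single peak lay in 350 genes, 2 in 90, 3 in 29, and 4 or more in 14, which together held 62. Coding genes with a peak were longer, with a median of 16878 bp against 3197 bp, and offered more bases, with a median of 7206.5 against 375. When the genes were split into 4 groups by such bases, 20.3% held a peak in the group with the most and 0.0522% in the group with the least.

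The genes with 4 or more were CG13917, CG32264, CG3764, CG9328, Hipk, RapGAP1, Spn, msn, osp, ps, shn, siz, tou and ush. The most, 6 peaks each, lay in shn, which encodes a zinc finger protein of Dpp signalling, and in CG32264. In shn the strongest measured 225 in replicate 1 and 186 in replicate 2, the next 129 and 152, and the weakest 45.1 and 55.1, and 4 of the 6 were found in both own sets. In CG32264 the strongest measured 174 and 181. In ush, which encodes a partner of GATA factors, the strongest pair measured 109 and 95.5, and 82.1 and 85.4.

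Genes with an intronic peak had a promoter peak as well more often than genes without one, though most had none. Of the 476 coding hosts 133, or 27.9%, had one, beside 1216 of all 7602 such coding genes and 15.2% of those without an intronic peak. Within the group of genes with the most bases that met the rule the shares were 28.1% of hosts and 13.5% of the rest, and in the next group 28.6% and 16.8%. A promoter peak counted at any start of a gene, and the number of starts was not matched. No test was run on these shares.

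Lists of genes by role were read against the 6.26% of all such genes and against an expected share. That share came from the 4 groups of genes by bases that met the rule, each gene counting with the share of its group. Genes in the group with the most offered from 2814 to 70165 such bases, so size was not matched within a group. Of genes of signalling pathways 19 of 78 held a peak, or 24.4% with 13.5% expected. Mad (chr2L:3153320-3153514), the Smad protein of Dpp signalling, measured 142 in replicate 1 and 189 in replicate 2. The peak of aos (chr3L:16480456-16480672), a secreted inhibitor of the EGF receptor, measured 227 and 188, so replicate 1 was higher there and replicate 2 at Mad.

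Of cytoskeleton and muscle genes 15 of 49 held a peak, or 30.6% with 14.6% expected. Msp300 (chr2L:5145706-5145896), which encodes a nesprin that ties nuclei to the cytoskeleton, measured 222 and 164. Dys (chr3R:19499147-19499326), the dystrophin gene, measured 167 and 158, and a second, weaker peak in each gene was found in neither own set. Of RNA-binding and splicing factors 10 of 40 held one, with a share of 25% and 11.7% expected, with mub and brat above and shep at 106 and 90.0.

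Of patterning and neurogenesis transcription factors 15 of 74 held a peak, or 20.3% with 15.5% expected. The peak of zfh1 (chr3R:30781690-30781861), which encodes a zinc finger and homeodomain protein of mesoderm, measured 171 and 133. The strongest peak of aop (chr2L:2163600-2163728), an ETS repressor, measured 117 and 121. In the Hox genes the values were lower, with 38.6 and 74.8 at the strongest of Abd-B and 51.7 and 65.5 in Antp, both found in replicate 2's set alone.

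Ecdysone response genes held a peak in 5 of 22, or 22.7% with 17.0% expected. They included Eip63E, a cyclin-dependent kinase gene, at 161 and 155, EcR, and the nuclear receptor gene Hr3 at 74.1 and 87.2. Chromatin regulators held one in 5 of 51, or 9.80% with 7.22% expected. Besides Trl they included psq, a BTB protein gene, at 60.7 and 72.5. The nervous system and cell adhesion list stood below its expected share, with 5 of 55, or 9.09% with 18.5% expected. Sema1a (chr2L:8575105-8575217), an axon guidance gene, measured 107 and 115 there, and sli, the gene of the ligand Slit, 112 and 89.6.

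The lists of translation and ribosomal genes held about as few peaks as their groups by bases would give. Translation factors held 1 of 34, or 2.94% with 3.72% expected, at pAbp, the poly(A)-binding protein gene, with 96.1 and 83.4. Cytoplasmic ribosomal protein genes held 0 of 23 with 1.40% expected, and mitochondrial ribosomal protein genes 0 of 18 with 2.37% expected. A median gene of these lists offered 114 and 85 bases that met the rule. The lists were described and not tested. They share some genes, so the peak of zfh1 also counted among cytoskeleton and muscle genes, and that of pAbp also among RNA-binding and splicing factors.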

How the data were processed

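The data were lists of ChIP-seq peaks from 2 biological replicates. Per the labels, the embryos were aged 0 to 24 hours, sonication gave fragments of 200 to 800 bp, and the build is dm6. The authors deposited, for each replicate and for their pool, ranked peaks and peaks thresholded by the irreproducible discovery rate, plus a conservative pooled set. Each deposited peak has a signal value whose unit is not stated. Per the deposited text, reads of a control library were among the inputs, which were not analysed here. Aligner, peak caller and read depth are not given in the sources used here. Columns of the ranked lists without names were not used.

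Main values come from the pooled thresholded set. Summits were placed on the annotation of Ensembl release 115 (18277 genes on the arms, transposable elements left out), and sequence was NCBI's. A summit was compared with all bases that met the same rule. A replicate's signal is that of the strongest peak of its ranked list sharing at least 1 bp with the pooled peak, so overlapping pooled peaks can share a value. A peak was found in a replicate when it overlapped that replicate's own thresholded set. Shares were compared by Fisher's exact test between classes of peaks and by exact binomial tests against bases, and composition by an exact sign test. All tests were two-sided with a threshold of 0.05 after Benjamini-Hochberg adjustment within each family (3 classes, 5 arms, 26 words, 78 comparisons of words between classes). Strata of A and T, 5 percentage points wide, were combined by the Mantel-Haenszel method. The 95% Wilson intervals, and the limits from 3 counts for a count of 0, cover counting error alone and not the spread between the 2 replicates. The p-values likewise count peaks of 1 experiment.

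Named genes were the 20 strongest peaks found in both own sets, the strongest in neither set, genes with 4 or more peaks, up to 3 per list by signal and those with AGATGGCG. Further genes of the lists, and further peaks of those genes, were named after their values were seen. The members, the 10 lists and the words were chosen with earlier results of these data known. The split by owner of the nearest start, the first-intron comparison within bins, the comparison of words between classes, and the alternatives without overlapped peaks or repeat-masked bases were chosen after seeing the data. A first pass had miscounted first introns and introns ahead of the start codon by distance and by signal, and all values come from the corrected run. The sequence of 1 further summit window is not reported here. The tests were checked on simulated data. Python 3.11.15, numpy 2.4.6, pandas 2.3.3, scipy 1.17.1, statsmodels 0.14.6 and matplotlib 3.10.9 were used.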

Additional observations from a re-analysis of the deposited data

How the results depend on the processing

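Of 177 values recomputed under an alternative, 119 were counted as kept. Some of these had no test, such as the number of words that passed, and could still differ. The others kept their direction and side of the threshold. The distance, first-intron, base composition and nearest-start results did so under every alternative run. No paired analysis was possible because the labels give 1 group. Among the stronger autosomal peaks the difference in the share found in both sets was -2.41 points from promoter peaks, 3.64 from farther intronic peaks and -2.30 from intergenic peaks, a reversed sign, and none passed. With the strongest peak of each gene the first was -0.0345 and did not pass, the last was 11.7 and passed, both raised by the choice by signal, and the difference in signals above the median from promoter peaks was -0.684 and did not pass. That difference was 4.08 to 6.22 points from farther intronic peaks and 3.61 to 5.20 from intergenic peaks when each replicate was left out in turn, 2.28 from intergenic peaks by replicate 2's ranked signal and 4.89 for summits over 1000 bp from a start, and did not pass in these settings. The median signal was 112 in the conservative set, 68.6 to 68.9 with a replicate left out, 55.4 and 53.7 in the ranked lists with absent peaks set to 0, 103 over 1000 bp from a start, 123 for the strongest peak of each gene and 108 without overlapped peaks. With a replicate left out, arm 2R held 98 to 113 peaks, chromosome 4 held 0 to 1, and 19.8% to 23.4% of hosts had a promoter peak, beside 11.8% and 12.4% of coding genes. The number of words that passed, 8, became 3 within strata of A and T (AGNNGGCGC among them), 4 in the conservative set and 3 without replicate 2. It became 7 without replicate 1, 6 against the flanks of the same summits and 1 without repeat-masked bases. The odds ratio of TAATTA was 0.984 and that of AAAAAAAA 0.992 within the strata. Without repeat-masked bases CACACA had 1.05 and AAAAAAAA 0. The cause of these changes was not tested. Read depth is unknown, so its part in the peaks missing from one replicate's set cannot be told apart from other differences between the replicates.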
